A study of Rattus norvegicus with 21 samples.

Results

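In the urinary bladder of rats with spinal cord injury (SCI), 147 genes lay below their level in uninjured controls at each of 3 times, 2, 8 and 16 weeks. They were drawn from 15225 genes with enough counts to be tested, of 32754 genes in the count table. A gene was taken if, at each week, all 3 SCI libraries lay below all 3 controls of that week and the mean difference was -0.5 or less on the log2 CPM scale. CPM scales each library's counts to a common total after TMM normalization, and a prior count of 2 was added before the log. The members were thus chosen on the measured differences between SCI and the controls of the same week, which are given here as a description and support no test. The same rule turned around, for genes above their controls at every week, took 17 genes.

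Bulk RNA was sequenced from the full-thickness bladder wall, which holds urothelium, lamina propria and detrusor muscle together, in 21 libraries of 7 groups with 3 libraries each. The rats were male Sprague Dawley animals, an outbred strain, of WT genotype. In the 3 SCI groups the cord had been cut through completely at T8, a thoracic segment, in animals 6 to 7 weeks old, and the bladder was taken 2, 8 or 16 weeks later. The 4 control groups were uninjured rats at 0, 2, 8 and 16 weeks of study time, which is not their age. The study calls the controls of the SCI groups age-matched, and the labels do not state the controls' age outright. A 0-week control and a 16-week SCI bladder thus also differ by 16 weeks of time. The labels give all libraries the same batch and do not say outright that the 3 replicates of a group are separate animals, so the p-values below measure the spread between these libraries. Total counts ran from 8087726 to 15472537 per library.

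After a complete injury above the sacral cord the bladder loses voluntary control, and reflex voiding returns with the sphincter contracting against the detrusor. The organ works against this outlet, and its wall is known to enlarge, with growth of the smooth muscle and deposition of collagen. The normal wall is a mixture of epithelium, muscle, fibroblasts, vessels and nerves. In bulk tissue, fewer cells of a type and less RNA per cell cannot be told apart.

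The count table names genes by Ensembl identifier, and 0 of the 32754 identifiers matched a symbol in the reference table used. That reference had 47357 rows, of which 0 held an Ensembl identifier, so no match was possible. No member is therefore named, no role is given for any of them, and the markers of urothelium, smooth muscle, nerve and other cell types could not be checked in these libraries. Members are called by rank, where rank 1 has the most negative mean of the 3 weekly differences. Identifiers are printed for ranks 1 and 2.

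The 147 members were a small share of the bladder RNA, and a smaller one after SCI. They held 0.985% to 1.4% of the counts in the 12 control libraries and 0.527% to 0.782% in the 9 SCI libraries, with no overlap. The rule took genes with low SCI libraries, so the smaller share after SCI follows from it and is only a description. 3 members, those with the highest levels, made up 47.4% of the members' summed CPM. The set was weighted toward low levels, with a median of 3.30 on the log2 CPM scale and a range of -0.57 to 10.81, against a median of 4.43 for all genes tested. When the genes tested were cut into 4 classes of equal size by their mean level, 60 members lay in the lowest class, 41 in the next, 21 in the one above and 25 in the highest. These counts are 1.58%, 1.08%, 0.552% and 0.657% of the genes in each class.

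The differences were largest at 8 weeks for most members. On the log2 CPM scale the median difference between SCI and control was -0.80 at 2 weeks. It was -1.22 at 8 weeks and -0.96 at 16 weeks, and the median over all genes tested was 0.00, 0.01 and -0.02 in the same order. The middle 50% of members lay between -1.24 and -0.65 at 2 weeks, between -1.65 and -0.97 at 8 weeks and between -1.22 and -0.78 at 16 weeks. The most negative of a member's 3 differences was at 8 weeks in 98 members, at 16 weeks in 31 and at 2 weeks in 18. Of all genes tested, 508, 1246 and 1349 met the order and size of the rule at 2, 8 and 16 weeks taken singly. edgeR's tests for a change in the difference between weeks, given below, called 0 members. A difference of 2-fold or more was reached by 52, 104 and 69 members at 2, 8 and 16 weeks, and by 36 at every week. The plot of weekly differences by rank shows the spread around these medians.

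**Figure D1:**
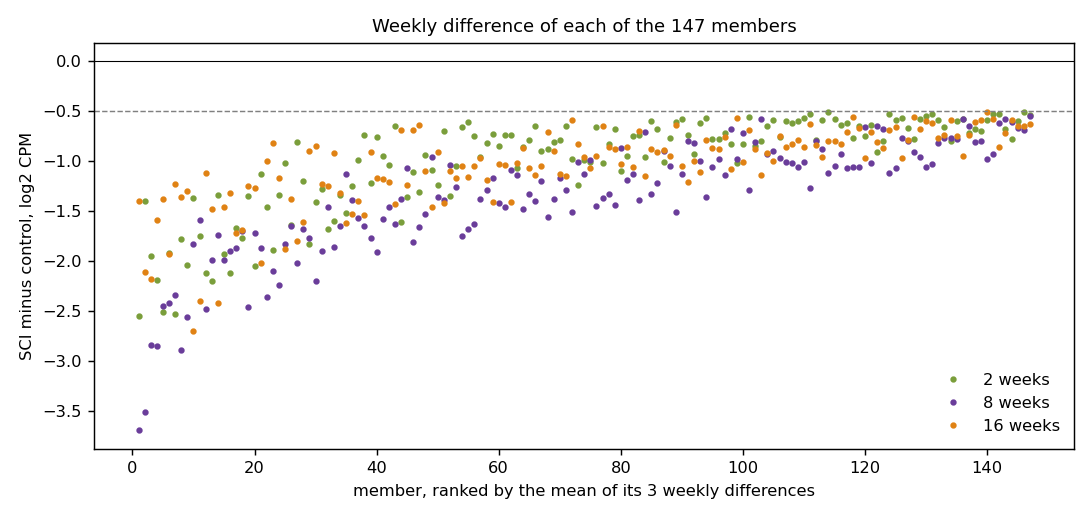
Difference between the SCI and control means in log2 CPM (vertical axis) for each of the 147 members (horizontal axis, by rank), with 1 point for each week and the limit of -0.5 as a dashed line. The points of 8 weeks lie lowest for 98 members, and the differences of rank 1 are -2.55, -3.69 and -1.40 at 2, 8 and 16 weeks.

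edgeR's quasi-likelihood test over all genes, with Benjamini-Hochberg adjustment and an adjusted p under 0.05, called 0 members lower at 2 weeks, where it called 0% of all genes tested lower. At an unadjusted p under 0.05 it passed 126 members lower at 2 weeks against 4.2% of all genes, and DESeq2's Wald test called 22 members among 64 genes in all. The edgeR test called 105 members lower at 8 weeks, against a background of 5.14% of all genes, and 52 at 16 weeks, against 3.24%. Nothing is read from these shares, since the rule used the same contrasts. Leaving out replicate 1 or 3 of the SCI libraries changed the count at 8 weeks to 12 and 16, and leaving out replicate 2 or 3 of the controls changed it to 64 and 68. At 16 weeks the count became 7, 20 and 8 when replicate 1, 2 or 3 of SCI was left out, and 9 and 24 when replicate 1 or 3 of the controls was. The calls over all genes in either direction moved with them, from 1281 to 32, 61, 433 and 676 at 8 weeks and from 855 to 16, 104, 17, 19 and 214 at 16 weeks. At 8 weeks the fit of the 2 groups alone called 60 members, among 322 of 14352 genes. With library-size scaling in place of TMM, edgeR called 108 members at 8 weeks, among 3088 genes in all. Other settings gave more calls at 16 weeks, with 95 members when the 0-week controls were left out, 89 when the 2 groups were fitted alone, 86 with DESeq2 and 81 with a replicate block, among 2086, 2105, 1637 and 1307 genes in all. At 2 weeks edgeR called 7 members among 9 genes when the 0-week controls were left out.

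The member of rank 1, ENSRNOG00000053047, had 23.3, 10.4 and 22.6 CPM in the 2-week controls and 2.74, 2.90 and 2.88 CPM in the SCI libraries of that week. At 8 weeks it had 26.9, 17.4 and 14.2 CPM in the controls and 0.858, 1.75 and 1.37 CPM after SCI. At 16 weeks it had 10.4, 3.18 and 4.62 CPM in the controls and 1.17, 2.99 and 1.96 CPM after SCI. The gap was smaller at 16 weeks, where all 3 controls lay below those of 8 weeks while the SCI levels of 8 and 16 weeks overlapped. The weekly differences were -2.55 ± 0.38 (SE, n = 3 against 3), -3.69 ± 0.37 and -1.40 ± 0.60 on the log2 CPM scale. In the 0-week controls, whose levels the rule did not compare, this gene had 68.6, 38.3 and 12.2 CPM, the widest spread of its 7 groups.

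The member of rank 2, ENSRNOG00000047712, was lower in SCI at 8 weeks than at 2 weeks. It had 12.0, 11.3 and 9.94 CPM in the 2-week controls against 3.04, 6.22 and 3.54 CPM after SCI, and 7.92, 9.40 and 5.85 CPM in the 8-week controls against 0.343, 0.546 and 0.587 CPM after SCI. At 16 weeks the controls had 4.71, 3.08 and 5.56 CPM and the SCI libraries 0.937, 0.498 and 1.27 CPM. The SCI libraries of 8 weeks rest on 4, 5 and 6 counts, so that these levels are known only roughly. From 2 to 8 weeks after SCI its level fell by 3.11 on the log2 scale (SE 0.41, edgeR adjusted p = 0.00582), lower in 3 of 3 libraries. The rule used these SCI libraries and the gene was ranked on them, so this p is a description and not independent evidence. It was the 1 member called in that comparison, which called 2 of all genes tested. The adjusted p ranged from 3.73e-07 to 0.135 over 14 alternatives and passed the threshold in 11 of them. It did not pass when replicate 1 or 3 of SCI at 8 weeks was left out, or when the groups compared were fitted alone. In controls the fitted log2 change of this gene was -0.52 from 2 to 8 weeks and -1.53 from 0 to 16 weeks. The change in its SCI difference from 2 to 8 weeks was -2.59 (SE 0.51), with an edgeR adjusted p of 0.186.

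**Figure D2:**
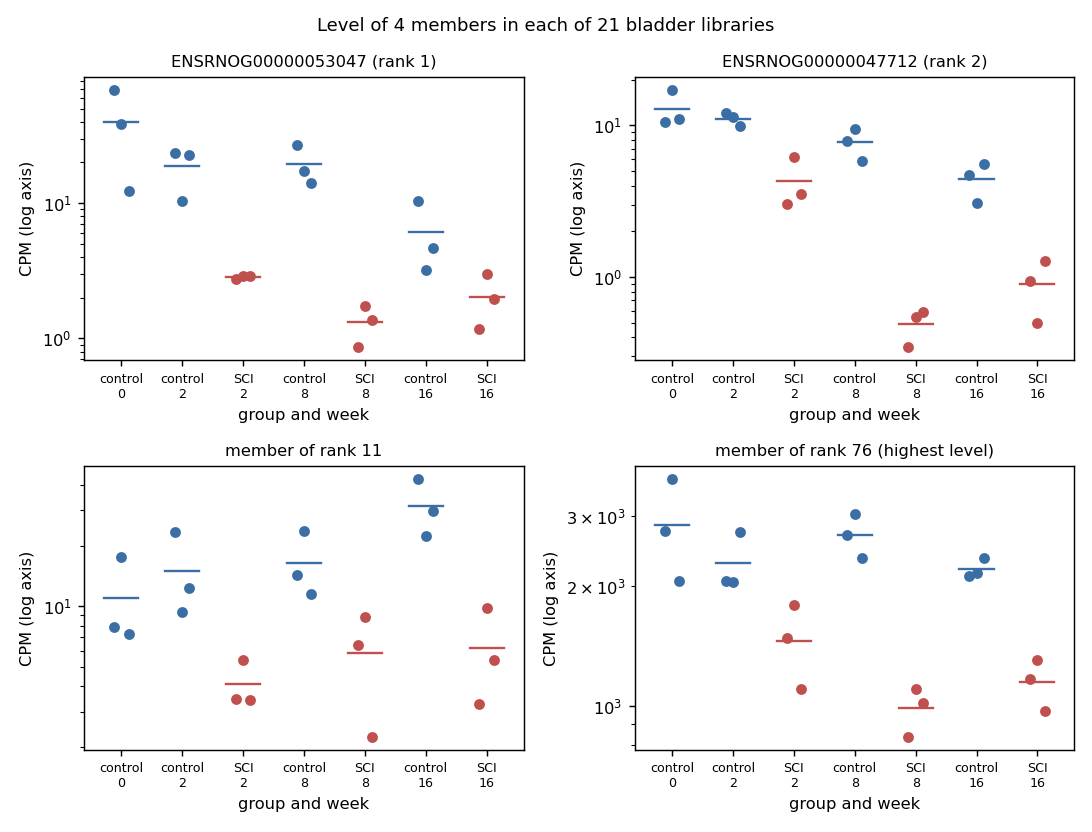
Level in CPM on a log axis of 4 members in each of the 21 libraries, by group and week, with controls in blue, SCI in red and the mean of the 3 libraries as a line. In each panel the SCI points of a week lie below the controls of that week, and the member of rank 76 lies between 837.2 and 1787.8 CPM after SCI and between 2048.5 and 3706.9 CPM in controls.

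Among members with abundant RNA the differences were smaller and rest on many more counts. The member of rank 76 had the highest level of all. It had 2064.7, 2048.5 and 2728.4 CPM in the 2-week controls against 1479.9, 1787.8 and 1101.6 CPM after SCI, and 2688.2, 3032.9 and 2355.9 CPM in the 8-week controls against 837.2, 1102.6 and 1017.9 CPM. At 16 weeks the controls had 2118.5, 2158.0 and 2356.6 CPM and the SCI libraries 1168.4, 1308.3 and 973.8 CPM. All 9 SCI libraries lay below all 12 controls, and the weekly differences were -0.66 ± 0.24, -1.45 ± 0.16 and -0.95 ± 0.13 (SE, n = 3 against 3). The next in level, of rank 137, differed by -0.72 ± 0.22, -0.65 ± 0.23 and -0.74 ± 0.13, a nearly even size across the weeks. Its levels were higher at 16 weeks in both arms, 2777.6, 2040.8 and 2493.1 CPM in controls and 1456.4, 1426.7 and 1468.3 CPM after SCI, so that SCI at 16 weeks reached the range of the 0-week controls, 1285.7, 2203.2 and 1521.8 CPM.

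The member of rank 37 kept an even level in every control group and a lower one after SCI. Its controls had 187.5, 253.9 and 185.1 CPM at 0 weeks, 173.0, 172.8 and 198.9 at 2 weeks, 171.7, 152.6 and 172.7 at 8 weeks and 159.7, 170.8 and 244.6 at 16 weeks. After SCI it had 90.6, 113.3 and 74.0 CPM at 2 weeks, 42.4, 60.1 and 68.0 at 8 weeks and 76.6, 67.0 and 69.7 at 16 weeks. The lowest of the 12 controls was above the highest of the 9 SCI libraries. The member of rank 11 had the opposite feature, a control level that was higher late, with 7.91, 17.6 and 7.25 CPM at 0 weeks and 42.6, 22.3 and 29.8 CPM at 16 weeks, while SCI at 16 weeks had 3.28, 9.85 and 5.43 CPM.

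The limit of -0.5 runs through a continuous range of genes. The members nearest to it, of ranks 114, 146 and 140, came to -0.51 at 1 week each, at 2, 2 and 16 weeks. The 3 nearest genes outside it, which kept the order of the libraries at every week, came just short of the limit at 1 week each, with differences that round to -0.50, and had -0.73 to -0.97 at their other weeks. Of 316 genes with the libraries in order at every week, 169 missed the size at one week or more, and of 344 genes with the size at every week, 197 missed the order. 10 members had no count in at least 1 library, and 5 had 3 counts or fewer in 1 group in all, where a fitted fold change depends on the prior count.

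The 0-week controls entered the filter on low counts and the scaling but not the differences that chose the members (145 genes met the rule without them), and a comparison with them asks whether the injured bladder was also below the bladder at the start of the study. The SCI side of this comparison was chosen to be low, the same 3 controls serve all 3 comparisons, and the sides differ by 2, 8 or 16 weeks of age, so SCI and age cannot be told apart in any of the 3. Without injury, the members' median log2 fold change between the 2- and 0-week controls was -0.26. edgeR called 82 of the 147 members lower in SCI at 2 weeks (55.8%), against 3.14% of all genes tested. It called 77 lower in SCI of 8 weeks (52.4%), against 3.44%, and 68 lower in SCI of 16 weeks (46.3%), against 3.56%. No member was called higher. The median log2 fold change of the 147 members was -1.10, -1.07 and -0.95, and that of all genes tested was -0.01, 0.01 and -0.00. A negative fold change was fitted for 147 members at 2 weeks, 147 at 8 weeks and 141 at 16 weeks.

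**Figure D3:**
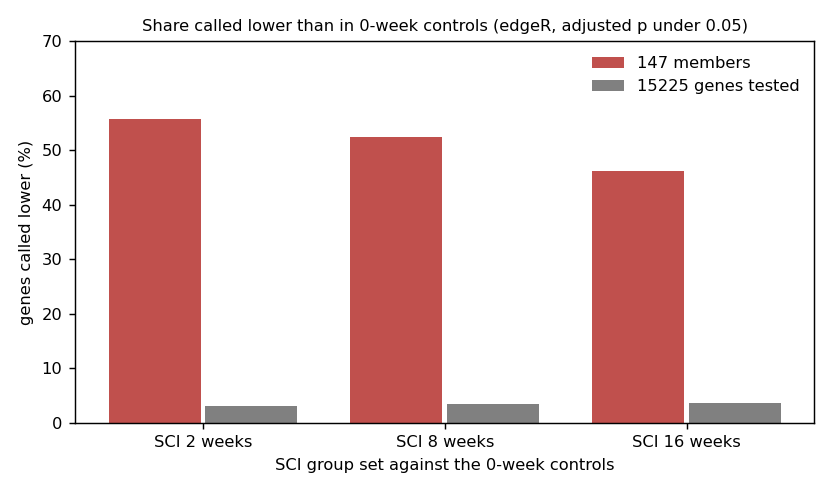
Share in percent (vertical axis, from 0) of the 147 members (red) and of the 15225 genes tested (grey) that edgeR called lower in each SCI group than in the 0-week controls. The members' bars stand at 55.8%, 52.4% and 46.3% and the bars of all genes at 3.14%, 3.44% and 3.56%.

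These counts depend on which libraries are fitted. A fit of fewer groups also changes the filter, the scaling and the degrees of freedom, and which of these matters was not tested. When only the 2 groups compared were fitted, 0, 8 and 2 members were called in SCI at 2, 8 and 16 weeks, where 1 of 14405, 39 of 14481 and 8 of 14360 genes were called in either direction. The 0-week controls were the most variable group, with a median SD over the members of 0.54 on the log2 CPM scale, against 0.22 to 0.37 in the other 6 groups. Over all genes tested it was 0.25 against 0.14 to 0.18. For SCI of 2 weeks the count dropped to 21 or 41 when SCI replicate 3 or 1 was left out, and to 48 when replicate 2 of the 0-week controls was. Over all genes tested the calls in either direction dropped as well, from 679 to 48, 195 and 385 in the same order.

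The order of single libraries gives the same comparison without a model. All 3 of the 0-week controls lay above all 3 SCI libraries in 109 members at 2 weeks, where 12.5% of all genes did, in 91 members at 8 weeks (9.83%) and in 92 at 16 weeks (11.7%). They lay above all 9 SCI libraries in 79 members, against 4.74% of all genes. The 9 controls of 2, 8 and 16 weeks all lay above all 9 SCI libraries in 57 members, against 0.565% of all genes. All of these counts are raised by the rule, which took genes with low SCI libraries.

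The SCI libraries on 1 side of the tests that follow also ranked the genes, so their p-values are descriptions and not independent evidence. ENSRNOG00000053047 had a log2 fold change of -3.81 ± 0.57 (SE) between SCI at 2 weeks and the 0-week controls, with an edgeR adjusted p of 0.00344 and all 3 SCI libraries below all 3 controls. Its log2 fold change was -4.93 at 8 weeks (edgeR adjusted p = 0.000257) and -4.26 at 16 weeks (edgeR adjusted p = 0.000538). Over 13 alternatives its adjusted p was at most 0.147, 0.0546 and 0.0572 in the 3 comparisons and missed the threshold only when the groups compared were fitted alone. ENSRNOG00000047712 had 10.5, 17.1 and 11.0 CPM in the 0-week controls and log2 fold changes against them of -1.59, -4.70 and -3.84 at 2, 8 and 16 weeks. Its edgeR adjusted p was 0.00764 at 2 weeks, where it missed the threshold when SCI replicate 3 was left out and when the groups were fitted alone. At 8 and 16 weeks its adjusted p stayed at or under 0.0203 and 0.0282 in all 13 alternatives.

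The member of rank 114 lies at the limit of the rule. It had 32.8, 40.6 and 24.2 CPM in the 0-week controls and 14.5, 15.9 and 11.8 CPM in SCI at 2 weeks, which makes -1.21 ± 0.16 (SE) as the fitted log2 fold change, at an edgeR adjusted p of 0.00243. Its difference from the controls of the same week was -0.51, where the 2-week controls had 19.0, 19.4 and 21.6 CPM, all below the 0-week controls. The fitted change between the 2- and 0-week controls was -0.71, with an edgeR adjusted p of 0.238. The members of ranks 11 and 137 were not called against the 0-week controls in any of the 3 comparisons, with edgeR adjusted p from 0.0579 to 0.635.

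The members' means in the uninjured bladder differed in course. From the means of the 0- and 16-week controls, 44 members were at least 0.5 lower at 16 weeks on the log2 CPM scale, 40 were at least 0.5 higher and 63 lay between. They are called falling, rising and steady members here. This split was made after the values were seen, carries no test, has a limit below the members' median SD of 0.54 in the 0-week controls, and uses those controls, so it and the comparison above are not independent. The falling members are 29.9% of the set, where 6.12% of all genes tested fall in that class. The rising members are 27.2%, against 9.83%, and the steady members 42.9%, against 84%.

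**Figure D4:**
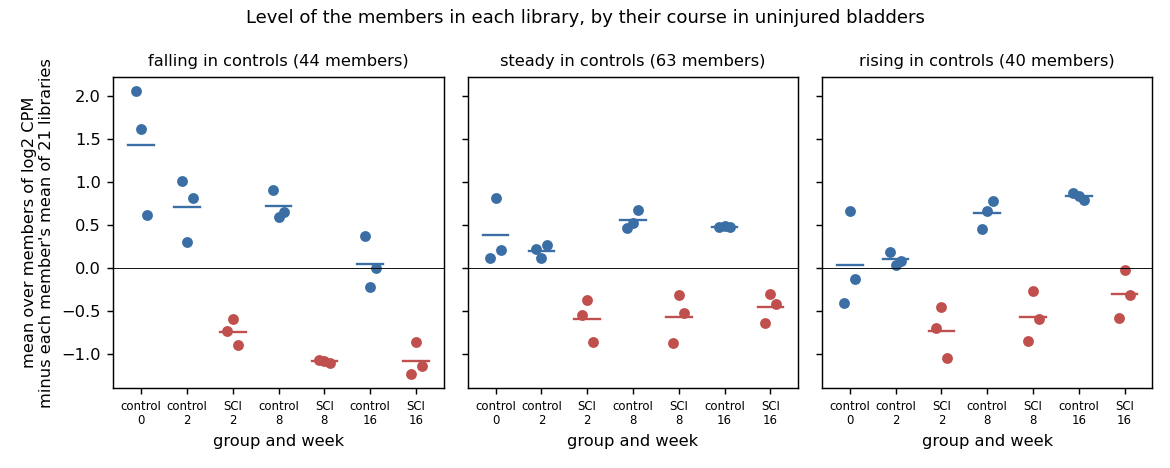
Mean over the falling, steady and rising members of log2 CPM, after each member's own mean of the 21 libraries was subtracted (vertical axis), for each library by group and week, with controls in blue, SCI in red and the mean of 3 libraries as a line. The falling members go from 2.06, 1.62 and 0.62 in the 0-week controls to 0.37, -0.22 and 0.00 in the 16-week controls, and the SCI libraries lie below the controls of their week in all 3 panels.

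The 44 falling members had a low level, with a median of 1.54 on the log2 CPM scale, against 3.92 for steady and 4.02 for rising members. Their median difference between SCI and control was -1.35 at 2 weeks, -1.78 at 8 weeks and -1.11 at 16 weeks. In controls they were a median of 1.45 lower at 16 than at 0 weeks (log2 difference -1.45), and in SCI 0.27 lower at 16 than at 2 weeks (log2 difference -0.27). Relative to the 0-week controls their median stood at -0.77, -0.76 and -1.45 in controls of 2, 8 and 16 weeks and at -2.18, -2.52 and -2.55 after SCI. Of the 44, edgeR called 42, 44 and 44 lower than in the 0-week controls at 2, 8 and 16 weeks, where 3.14%, 3.44% and 3.56% of all genes were called lower. Nothing is read from these counts, since high 0-week controls placed the genes in this class.

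The 63 steady members had median weekly differences of -0.75, -1.07 and -0.87, and 37, 30 and 23 of them were called lower than in the 0-week controls, beside the same 3.14%, 3.44% and 3.56% of all genes. The 40 rising members differed by medians of -0.74 at 2 weeks and -1.13 at 8 weeks, and by nearly as much at 16 weeks. In controls the rising members were higher by a median of 0.66 at 16 than at 0 weeks, and in SCI by 0.50 at 16 than at 2 weeks. Their median after SCI was -0.71, -0.57 and -0.30 relative to the 0-week controls, and 3, 3 and 1 of them were called lower there, beside the same shares of all genes. The class again fixes part of this, since it holds genes with low 0-week controls. The 16-week controls stood at 0.66 on the same scale.

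A test of the 16-week against the 0-week controls, added after the data were seen, called 21 members, 19 lower and 2 higher, against 1.8% of all genes, of which 118 were lower and 156 higher. At an unadjusted p under 0.05 it passed 68 members, 42 lower and 26 higher, against 17.8% of all genes. Every one of the 6 libraries moved this count by over 1.5 times. It became 2, 58 and 35 when replicate 1, 2 or 3 of the 0-week controls was left out, and 5, 11 and 4 when replicate 1, 2 or 3 of the 16-week controls was. Over all genes tested the calls went from 274 to 20, 2070, 346, 36, 387 and 88 in the same 6 fits. Control 0 weeks replicate 1 was the highest library on the falling members, at 2.06, and the lowest control on the rising members, at -0.41, where replicate 2 had 1.62 and 0.66. The 2-group fit called 0 members and 0 of 14613 genes, and DESeq2 called 37 members and 689 of 15225 genes.

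Between neighbouring times in the controls, edgeR in the fit of all libraries called 0 members between control 2 and 0 weeks, where it called 0% of all genes, 0 between control 8 and 2 weeks (0% of all genes) and 0 between control 16 and 8 weeks (0.0788% of all genes). DESeq2 called 2, 0 and 0 members in these, among 44, 224 and 103 of 15225 genes, and edgeR called 14 between control 2 and 0 weeks once replicate 3 of the 0-week controls was left out, with 82 of all genes. With the 2 groups fitted alone it called 11 members between control 8 and 2 weeks, among 453 of 14394 genes. At an unadjusted p under 0.05, 35 members passed at 2 against 0 weeks, 34 of them lower, where 13.4% of all genes passed. At 8 against 2 weeks 43 passed, 40 of them higher, where 18.9% did, and at 16 against 8 weeks 17 passed, where 9.5% did. The median log2 fold changes of the members in controls were -0.26, 0.31 and -0.11 in that order, and a negative fold change was fitted for 118, 32 and 88 of the 147. The controls of 2, 8 and 16 weeks were part of the rule, so nothing is read from these counts.

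After SCI, edgeR called 1 member between 8 and 2 weeks, the gene of rank 2 described above, against 0.0131% of all genes, and 0 between 16 and 8 weeks (0% of all genes, DESeq2 0). At an unadjusted p under 0.05, 16 members passed at 8 against 2 weeks and 3 at 16 against 8 weeks, where 4.49% and 1.81% of all genes passed. The median log2 fold change was 0.01 and 0.17.

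An interaction term asked whether the SCI difference was of another size at another week. edgeR called 0 members for 8 against 2 weeks, where it called 0.0197% of all genes, 0 for 16 against 2 weeks and 0 for 16 against 8 weeks, where it called 0% of all genes in both. DESeq2 called 1, 0 and 0 members, among 27, 6 and 16 of 15225 genes. At an unadjusted p under 0.05, 11, 2 and 6 members passed, where 8.59%, 7.75% and 6.63% of all genes passed. The median log2 change in the difference was -0.37 from 2 to 8 weeks and 0.23 from 8 to 16 weeks, with a median SE of 0.45 for a single member. The rule used the same weekly differences, so nothing is read from these counts.

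Members varied together within groups. After subtraction of the group means, the median Pearson r over the 21 libraries was 0.27 for all 10731 pairs of members, and -0.00 for all pairs of genes tested. These values are descriptions, since the points share library, depth and scaling, and the subtraction leaves 14 degrees of freedom. Within the falling members the median r was 0.43, within the steady members 0.38 and within the rising members 0.46. Steady and rising members varied together (0.41), while falling and rising members had a median r of 0.08.

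**Figure D5:**
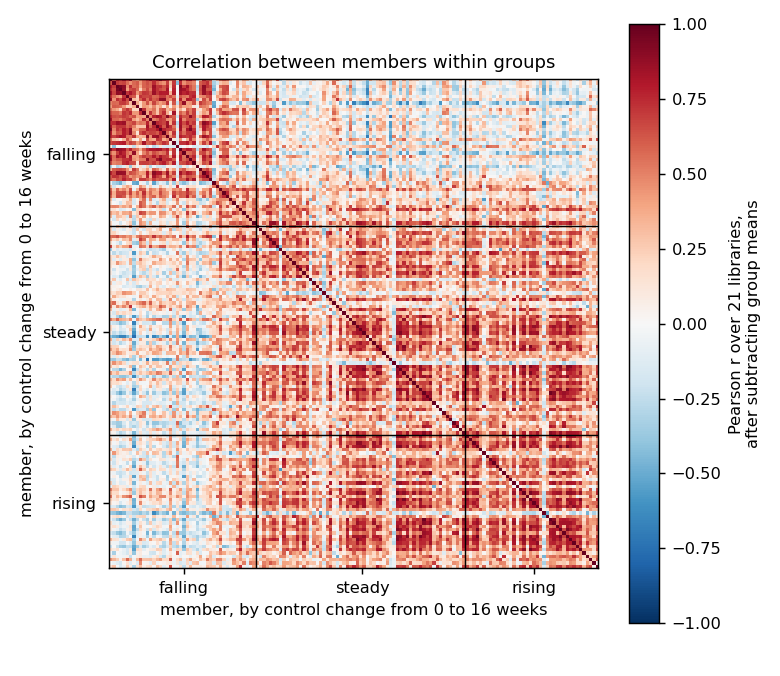
Pearson r between each pair of the 147 members over 21 libraries after the group means were subtracted, with members on both axes ordered by the difference between 16- and 0-week controls and black lines between falling, steady and rising members. The block of falling members (median r 0.43) and the joint block of steady and rising members (0.38, 0.46 and 0.41 between them) have higher values than the pairs of falling with rising members (0.08), which within the 9 SCI libraries alone does not hold for the falling block (0.13 against 0.23).

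The falling block rests in part on the 0-week controls. Without them the median r within the falling members was 0.26, and over the 9 SCI libraries alone it was 0.13, below the 0.23 between falling and rising members there. Over the 12 controls it was 0.61. The rising members kept a median r of 0.36 without the 0-week controls and 0.51 within the SCI libraries, and the steady members 0.31 and 0.47. Within SCI the members' mean level was highest in replicate 2 of each week, at -0.46, -0.54 and -0.39, against -0.65 to -0.93 in the other libraries of 2 and 8 weeks and -0.81 and -0.61 in those of 16 weeks. Replicate numbers do not mark a shared animal or batch in the labels, and what these libraries share was not tested.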

How the data were processed

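RNA was sequenced from full-thickness rat bladder as paired-end reads of 51 bases from ribodepleted, stranded libraries. The authors deposited 1 table of counts for 32754 Ensembl genes, in whole numbers and not normalized. The submitters' processing notes name Trim Galore 0.6.10, STAR 2.7.10a, SAMtools 1.17, featureCounts 2.0.3 and the build Rnor_6.0. The strand setting used for counting is not given in the sources used here, so genes that overlap may share reads.

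Groups were taken from the sample titles. With edgeR 4.0.16 in R 4.3.3, filterByExpr kept 15225 of 32754 genes and TMM factors were 0.903 to 1.09. At 8 weeks they were 0.922 to 0.938 in the controls and 0.996 to 1.09 in the SCI libraries. All 21 libraries entered 1 quasi-likelihood fit with a mean per group, 14 residual degrees of freedom and a common biological coefficient of variation of 0.16, and p-values were adjusted over all genes tested. The procedure was tested on simulated data. Replicate libraries of a group all differed by more than sampling noise.

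The members and lists were chosen with earlier results of these data known. The rule for named genes took the 12 members with the most negative mean difference among those with an average log2 CPM of at least 1. That average is the one edgeR fits, which differs from the mean log2 CPM used elsewhere. It also took the 6 with the highest level, the 3 nearest to the limit on each side, and up to 4 called members per comparison. The rule allowed 2 identifiers where no symbol matched. Gene lists, cell type markers and promoter motifs need symbols and were not used here. Alternatives were RLE or library-size scaling, other filters, prior counts and limits, DESeq2 1.42.0, a replicate block, fits with fewer groups and leaving out each library.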

Additional observations from a re-analysis of the deposited data

How the results depend on the processing

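The number of genes lower at every week was 248 with a limit of -0.25 and 36 with a limit of -1, and 116 to 256 when 1 library was left out, highest without SCI 2 weeks replicate 2. Of the 75 weekly differences of named members, 0 of 600 recomputed values reversed and 5 moved by more than the spread between replicates. In 2 alternatives chosen after seeing the data, 145 genes met the rule without the 0-week controls in the scaling, and 67 of the 118 members with a mean log2 CPM of at least 1 were called in SCI of 2 weeks against the 0-week controls, beside 605 of the 13303 genes at that level. Without the 0-week controls, edgeR called 7, 134 and 95 members at 2, 8 and 16 weeks, with 9, 2466 and 2086 of 15138 genes called in all. With the 2 groups compared fitted alone it called 1, 60 and 89 members at 2, 8 and 16 weeks (4, 322 and 2105 of all genes), 0, 8 and 2 in SCI of 2, 8 and 16 weeks against the 0-week controls (1, 39 and 8 of all genes), 11 between control 8 and 2 weeks (453 of all genes), 0 between SCI 8 and 2 weeks and 0 between control 16 and 0 weeks. DESeq2 called 22, 129 and 86 members at 2, 8 and 16 weeks, with 64, 1960 and 1637 of all genes. Against the 0-week controls it called 102, 89 and 75 in SCI of 2, 8 and 16 weeks, with 1257, 1069 and 1121 of all genes. It called 2 between control 2 and 0 weeks, 1 in the interaction of 8 with 2 weeks and 37 between control 16 and 0 weeks, with 44, 27 and 689 of all genes. The cause of these shifts was not tested.

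With 1 library left out, the count called ran from 0 to 0 at 2 weeks, 12 to 116 at 8 weeks and 7 to 35 at 16 weeks (0 to 1, 32 to 2585 and 16 to 513 of all genes). Against the 0-week controls it ran from 21 to 95, 55 to 84 and 51 to 71 in SCI of 2, 8 and 16 weeks (48 to 1460, 271 to 1113 and 282 to 1228 of all genes). It ran from 0 to 14 between control 2 and 0 weeks, 0 to 1 between SCI 8 and 2 weeks, 2 to 58 between control 16 and 0 weeks, and 0 to 0 in the other comparisons over time and the interactions. Where a group is left with 2 libraries, the fit takes its spread from all groups.

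A replicate block raised the count at 16 weeks from 52 to 81 (from 855 to 1307 of all genes) and moved no other count by over 1.5 times, with 130 called at 8 weeks and 90, 84 and 69 against the 0-week controls (1783, 857, 745 and 756 of all genes). The labels do not say that replicate numbers pair the samples. Same-numbered SCI and control libraries of a week had correlations of -0.14 to 0.13 between their deviations, and 3 of 9 pairs were over 0.1. Differently numbered libraries had -0.14 to 0.20. With 3 libraries per group these values cannot decide whether samples are paired.

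Precision is limited by 3 libraries per group and by low counts after SCI. In each SCI library 22 to 36 members had fewer than 10 counts, against 2 to 10 in each control. The 0-week controls carry the widest spread and serve all comparisons with the start of the study. No gene names, markers or sequences could be tied to the members, since the reference table used held no Ensembl identifiers.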
